A study of Mus musculus with 7 samples.

Results

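The respiratory chain complex subunit genes are the nuclear genes that encode the proteins of mitochondrial complexes I to V. They were taken as the protein-coding genes whose symbols begin with Ndufa, Ndufb, Ndufc, Ndufs, Ndufv, Uqcr, Cox4 to Cox8 or Atp5, together with Sdha, Sdhb, Sdhc and Sdhd. The rule selected 96 of 21900 protein-coding genes: 41 of complex I, 4 of complex II, 8 of complex III, 18 of complex IV, 17 of complex V, and 8 Ndufaf genes, which share the Ndufa prefix but encode complex I assembly factors and were kept apart. An ATAC-seq peak, a stretch of open chromatin that transposase can cut, belonged to a gene when it touched the gene or lay within 100 kb with that gene the nearest protein-coding one. The 96 genes held 150 of the 50213 deposited peaks. A peak was found for 88 genes. The other 8 were Atp5g1, Cox4i2, Cox6a2, Cox7b2, Cox8c, Ndufa6, Ndufb4b and Ndufb4c, the first of which encodes one of the proteins of the ATP synthase rotor ring. Of the 150 peaks, 130 passed the filter on low counts and were tested, and the 88 genes with a peak each kept at least 1 tested peak.

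Chromatin accessibility was measured in regulatory T (Treg) cells sorted from spleen as CD45.2+CD45.1-CD4+Foxp3-YFP+ cells. The mice were mixed bone marrow chimeras that received CD45.1+ marrow together with CD45.2+ marrow of the genotype studied. In the 4 WT libraries the sorted cells carried Foxp3Cre alone, and in the 3 Opa1 KO libraries Foxp3Cre with Opa1fl/fl, so cells of both groups express Cre from the Foxp3 locus and both developed beside competitor cells with intact Opa1. The labels give neither the age of the mice nor which library came from which mouse, so p-values measure the spread between these libraries.

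Opa1 is a GTPase that fuses the mitochondrial inner membrane and keeps the folds, or cristae, in which the respiratory complexes sit. Complexes I to IV pass electrons from NADH and succinate to oxygen. Complexes I, III and IV pump protons as they do so, and complex V, the ATP synthase, uses the proton gradient to make ATP. Treg cells are known for a high reliance on oxidative phosphorylation. Most subunits are encoded in the nucleus, by genes spread over many chromosomes, and the factors NRF1, GABP (an ETS family factor) and YY1 are known to bind the promoters of many of them. The few subunits encoded by mitochondrial DNA are not among the genes described here.

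The promoters of these genes were more often open than promoters at large. RefSeq promoter windows (GRCm38.p6, the assembly that mm10 names, 250 bases before to 50 after the annotated start) were matched by symbol for 78 of the 96 genes, which gave 83 windows. A peak overlapped 76 of these 83 windows (91.6%), against 9650 of all 21263 windows (45.4%). The 71 peaks over member windows are called promoter peaks. The windows of 6 genes follow, chosen because their peaks had the highest CPM of complexes I, IV and V (Ndufa5, Cox7c and Atp5j), had the smallest p among promoter peaks in each direction (Atp5h and Ndufv2), or show a pair of motifs in complex II (Sdhd). Capitals mark matches to the NRF1, ETS and YY1 motifs defined after them. Each is read 5′ to 3′ on the minus strand of its gene, from chr6:24527477-24527776 for Ndufa5, chr13:86046746-86047045 for Cox7c, chr16:84834927-84835226 for Atp5j, chr11:115419870-115420169 for Atp5h, chr17:66101510-66101809 for Ndufv2 and chr9:50603800-50604099 for Sdhd.
Ndufa5: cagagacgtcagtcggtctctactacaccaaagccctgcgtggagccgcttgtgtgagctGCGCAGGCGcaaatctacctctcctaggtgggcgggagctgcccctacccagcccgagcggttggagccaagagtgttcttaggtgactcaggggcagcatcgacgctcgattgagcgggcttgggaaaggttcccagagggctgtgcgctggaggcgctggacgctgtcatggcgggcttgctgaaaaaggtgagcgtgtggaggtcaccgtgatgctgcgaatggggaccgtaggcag
Cox7c: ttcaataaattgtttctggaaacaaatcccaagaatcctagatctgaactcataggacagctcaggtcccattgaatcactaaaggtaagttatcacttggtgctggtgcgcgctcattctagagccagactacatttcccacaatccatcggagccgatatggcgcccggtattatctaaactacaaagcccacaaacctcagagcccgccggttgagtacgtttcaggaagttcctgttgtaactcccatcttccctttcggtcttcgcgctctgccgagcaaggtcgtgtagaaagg
Atp5j: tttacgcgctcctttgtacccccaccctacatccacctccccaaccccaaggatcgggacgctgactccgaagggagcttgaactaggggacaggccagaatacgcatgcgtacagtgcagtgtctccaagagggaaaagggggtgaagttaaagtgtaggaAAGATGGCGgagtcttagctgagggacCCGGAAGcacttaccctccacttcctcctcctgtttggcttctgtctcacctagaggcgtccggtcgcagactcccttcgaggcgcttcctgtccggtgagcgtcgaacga
Atp5h: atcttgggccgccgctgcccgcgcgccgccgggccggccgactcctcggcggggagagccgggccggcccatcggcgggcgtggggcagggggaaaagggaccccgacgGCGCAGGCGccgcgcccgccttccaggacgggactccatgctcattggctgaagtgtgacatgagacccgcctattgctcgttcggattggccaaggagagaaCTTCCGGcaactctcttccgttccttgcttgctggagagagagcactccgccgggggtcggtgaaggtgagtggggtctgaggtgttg
Ndufv2: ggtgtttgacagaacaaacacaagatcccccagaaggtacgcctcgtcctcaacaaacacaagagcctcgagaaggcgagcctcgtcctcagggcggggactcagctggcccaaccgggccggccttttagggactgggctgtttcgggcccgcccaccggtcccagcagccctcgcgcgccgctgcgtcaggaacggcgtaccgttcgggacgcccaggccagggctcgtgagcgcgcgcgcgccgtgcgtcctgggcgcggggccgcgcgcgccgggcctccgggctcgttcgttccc
Sdhd: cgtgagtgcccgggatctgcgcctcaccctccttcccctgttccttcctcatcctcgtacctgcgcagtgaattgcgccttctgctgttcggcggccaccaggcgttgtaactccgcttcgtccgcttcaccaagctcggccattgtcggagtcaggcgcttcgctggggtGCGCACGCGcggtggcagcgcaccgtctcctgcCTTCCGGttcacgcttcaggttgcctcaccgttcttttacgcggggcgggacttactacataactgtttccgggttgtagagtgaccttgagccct

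Motifs were searched as exact letters on both strands, with N standing for any base and matches of different motifs free to overlap: GCGCANGCG for NRF1, CCGGAAG for ETS factors, AAGATGGCG for YY1, GGGCGGG for SP factors and TGACGTCA for CRE-binding factors. The NRF1 letters occurred in 23 of 83 member windows (27.7%) and in 8.58% of all windows. Among windows that overlapped a peak the shares were 27.6% for members and 16.2% for all. The YY1 letters were in 9.64% of member windows against 1.83% of all, and in 10.5% against 3.62% of windows in a peak. The ETS letters were in 22.9% against 11.6% of windows, but in 23.7% against 21.3% of windows in a peak, so the ETS shares were close among open promoters. The SP letters were in 34.9% of member windows and 33.9% of all, and in 34.2% against 52.2% of windows in a peak. At least 1 of the NRF1, ETS and YY1 motifs was found in 41 of 83 member windows (49.4%), against 19.6% of all windows. Among windows in a peak the shares were 51.3% for members and 36.3% for all.

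Counts of motifs by complex were small and no difference between complexes was tested. The NRF1 letters were in 7 of 18 complex V windows, 9 of 37 complex I windows, 2 of 3 complex II windows and 2 of 5 complex III windows, but in 1 of 13 complex IV windows, that of Cox6a1. The YY1 letters were in 5 complex I and 2 complex V windows, and in none of complexes II, III and IV. Atp5h and Sdhd each held an NRF1 and an ETS match, and the printed Atp5j window an ETS and a YY1 match. Where a gene had more than 1 window in a peak, the window with the most of these motifs was printed. The second Atp5j window, chr16:84835576-84835875 under the same peak, held no NRF1, ETS or YY1 match. With the annotated start of each printed window as position 0, the NRF1 match began at -141 in Atp5h, -79 in Sdhd and -190 in Ndufa5, for which RefSeq has a second start closer to the match. Cox7c, with the member peak of highest CPM, and Ndufv2 had none of the 3. A match is a run of letters and not a measured binding site.

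**Figure D1:**
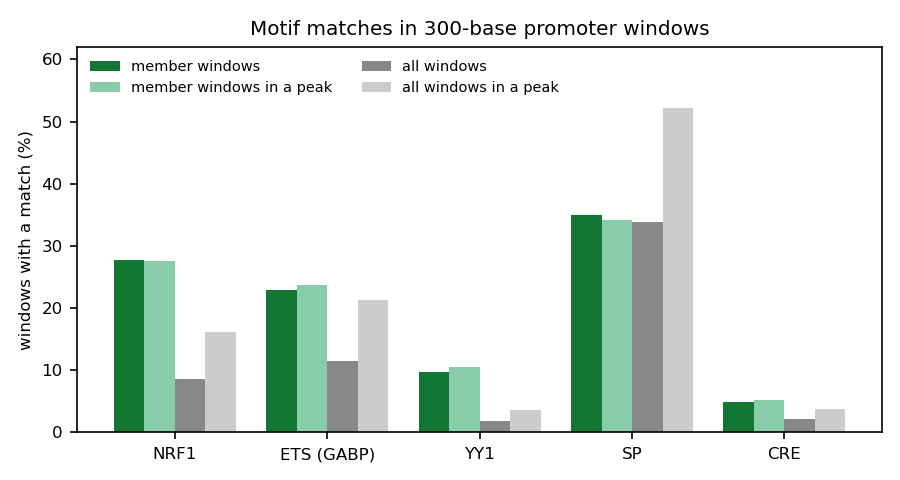
Percent of 300-base RefSeq promoter windows that hold each motif, for the 83 member windows, the 76 member windows that overlap a peak, all 21263 windows and the 9650 of those that overlap a peak. The NRF1 and YY1 bars of the members stand above both grey bars, the ETS bars stand near the bar for all open windows, and the SP bars stand below it.

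Many member promoters were shared with a neighbour. In 23 of 71 promoter peaks (32.4%) the peak also covered the promoter window of a gene on the opposite strand, against 669 of 8062 promoter peaks of the whole table (8.30%). These were 11 of 32 promoter peaks of complex I, 2 of 3 of complex II, 2 of 5 of complex III, 5 of 13 of complex V and 3 of 7 of the assembly factors, and 0 of 11 of complex IV. Examples are Sdhd with Timm8b, which encodes a chaperone of mitochondrial protein import, Ndufb5 with the mitochondrial ribosome gene Mrpl47, Ndufa7 with the ribosomal protein gene Rps28, and Atp5j with Gabpa, which encodes the DNA-binding subunit of GABP. In such a peak the counts cannot be divided between the genes. Accessibility itself was close to that of other promoters: the median member promoter peak had 35.3 CPM (counts scaled for library depth) and 72.5 CPM per kb of peak, against 33.6 CPM and 66.7 CPM per kb over all promoter peaks. Member peaks away from these windows were lower, with a median of 7.87 CPM and 27.8 CPM per kb.

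Counts in peaks totalled 1534394 to 3384325 per library, with KO1 the deepest, and 0.408% to 0.424% of each library lay in member peaks. CPM (the usual depth-scaled count) were computed from the counts in tested peaks after TMM scaling, with scaling factors of 0.985 to 1.01. KO was compared with WT by edgeR's quasi-likelihood test over all 38041 tested peaks with Benjamini-Hochberg adjustment, and a peak was called at an adjusted p under 0.05. Over all tested peaks, 33 (0.0867%) were called and 3603 (9.47%) had an unadjusted p under 0.05. WT2 and WT3 differed by little more than counting noise and were averaged to 1 sample in each mean ± SD, so that n = 3 for both groups, but stayed separate libraries in the tests. The Opa1 peak that was tested (chr16:29579139-29579524) had 36.8, 33.8, 37.3 and 37.9 CPM in WT1 to WT4 and 33.3, 29.1 and 42.6 CPM in KO1 to KO3, and since its place relative to the deleted exons is not given, it does not check the genotype. Of 8 Treg and T cell marker genes 7 had a peak (Tnfrsf18 had none), summing to 1014 to 1027 CPM in WT and 1038 to 1043 CPM in KO. Of the markers of other blood cells, Cd79a, Cd79b, Ms4a1, Csf1r, Lyz2, Ncr1 and Siglech had no peak, and others did. The peaks of the 2 of 6 B cell markers that had any summed to 29.1 to 34.4 CPM in WT and 24.8 to 34.1 CPM in KO, those of 3 of 5 myeloid markers (Spi1, Itgam and Cebpa) to 27.1 to 43.4 and 26.5 to 32.0 CPM, and those of Cd8a and Cd8b1 to 20.5 to 29.8 and 24.96 to 36.1 CPM. The NK cell markers Klrb1c and Eomes summed to 8.12 to 14.5 CPM in WT and 8.09 to 12.3 CPM in KO, and Bst2, of plasmacytoid dendritic cells, had 23.02 to 36.8 and 25.9 to 31.3 CPM. The WT and KO ranges overlapped for each list of other blood cells. For the sum of the Treg and T cell markers they did not, with every KO library above every WT library. Taken singly, only Il2ra was separated in this way, with 190.9 to 201.8 CPM in WT and 203.3 to 218.7 CPM in KO. The other markers with a peak overlapped, among them Ikzf2, the largest part of the sum, with 375 to 423 and 372 to 396 CPM.

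No respiratory chain peak was called different between Opa1 KO and WT Treg cells. Of the 130 tested peaks 0 were called, with a smallest adjusted p of 0.268 in edgeR, and DESeq2 and limma-voom also called 0. In edgeR 8 peaks (6.15%) had an unadjusted p under 0.05, below the 9.47% of all peaks, and DESeq2 and limma-voom gave 7 such peaks each. The estimates lay evenly around no change: 65 of 130 (50.0%) were above 0 on the log2 scale, with a median log2 fold change of 0.0036, against 49.8% and -0.00099 over all tested peaks. The KO and WT libraries did not overlap at 13 peaks (10.0%), 7 with KO above and 6 with KO below, near the 9.36% of all tested peaks. The test does not show that accessibility was equal. The whole 95% interval of the fold change lay within 2-fold in either direction for 97 of the 130 peaks and within 1.5-fold for 48. In bulk cells, a change in the share of cells with an open site and a change in each cell cannot be told apart.

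Promoter peaks were the better measured. For 67 of 71 the 95% interval lay within 2-fold and for 39 within 1.5-fold. Their median log2 fold change was 0.05, with 39 of 71 (54.9%) above 0, beside a median of 0.04 and 58.6% over the 7683 tested promoter peaks of all genes. Of the 71, 2 (2.82%) had an unadjusted p under 0.05, against 8.77% of all tested promoter peaks. The groups did not overlap at 4 of them (5.63%), each with KO above: Ndufb4, Uqcrh, Atp5h and Atp5j2. Over all tested promoter peaks this held for 684 (8.90%), 460 with KO above and 224 with KO below. The other 59 tested member peaks had a median of -0.05, with 26 above 0. They include gene starts of members without a RefSeq window. The 23 promoter peaks shared with an opposite-strand gene had a median of 0.06 and the other 48 a median of 0.04. Windows with the NRF1 letters had a median of 0.03 (21 windows in a tested peak) and those without 0.06 (55 windows), and for YY1 both medians were 0.05, over 8 and 68 windows. The ETS medians were 0.06 with the letters (18 windows) and 0.05 without (58 windows). For SP the median was -0.03 with the letters (10 of 26 windows above 0) and 0.07 without (33 of 50 above 0), and for CRE it was -0.06 over 4 windows and 0.06 over the other 72. These differences were not tested.

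**Figure D2:**
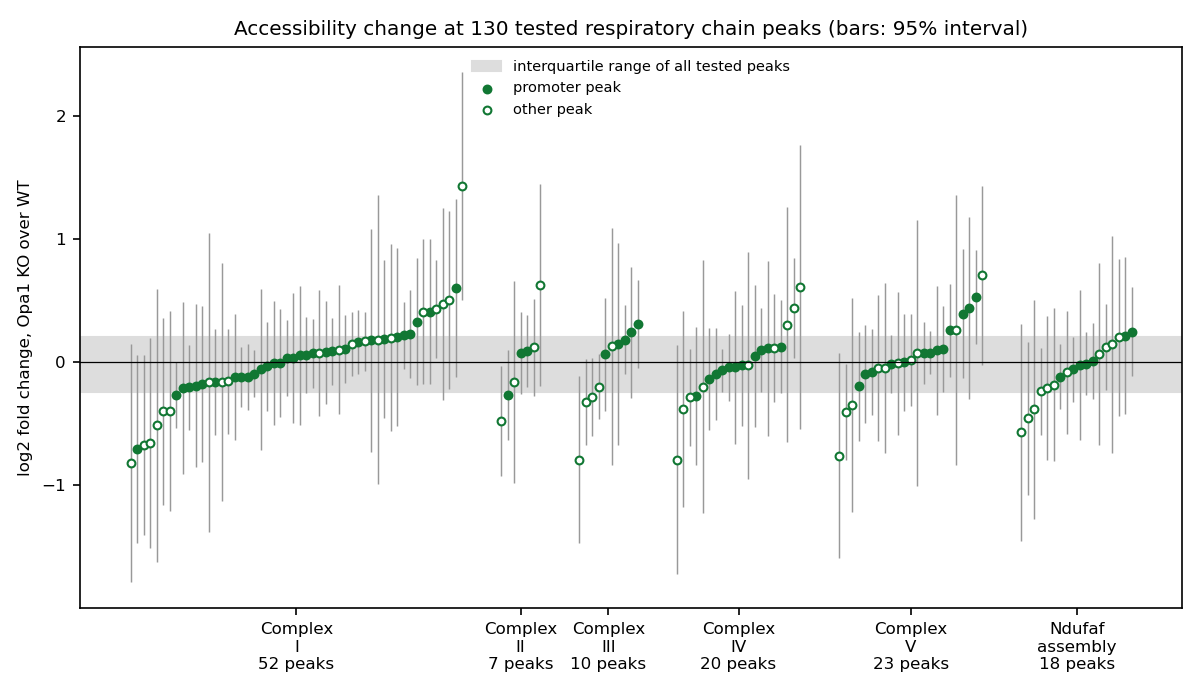
Log2 fold change of Opa1 KO over WT for each of the 130 tested member peaks, ordered within complexes I to V and the Ndufaf assembly factors; filled points are promoter peaks, open points other peaks, vertical bars the 95% interval from edgeR, and the grey band the interquartile range of all tested peaks. Points lie on both sides of 0 in every complex, and the largest estimate, 1.43, is the peak inside Ndufa10.

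Complex I takes electrons from NADH and passes them to ubiquinone. None of its 52 tested peaks was called, 28 had an estimate above 0, the median log2 fold change was 0.04, and 3 had an unadjusted p under 0.05. The subunits of its electron-entry arm gave estimates in both directions. Ndufs1, which carries iron-sulphur clusters of that arm, shares an open region at one end of the gene with the translation factor gene Eef1b2 (chr1:63176590-63177174). It had 32.0, 32.5, 22.9 and 27.4 CPM in WT1 to WT4 and 32.0, 41.7 and 44.2 CPM in KO1 to KO3. KO2 and KO3 were above all WT libraries and KO1 lay among them, with a log2 fold change of 0.43 (SE 0.20, edgeR adjusted p = 0.482). Ndufv2, the iron-sulphur partner of the NADH-binding subunit, pointed the other way at its promoter (chr17:66101360-66101854), with 77.0, 96.1, 90.3 and 66.4 CPM in WT and 67.2, 66.4 and 70.7 CPM in KO. The KO libraries sat close together at the level of the lowest WT library (log2 fold change -0.27, SE 0.13, edgeR adjusted p = 0.526). Ndufv1, the NADH-binding subunit itself, had a log2 fold change of 0.23 at its promoter, with overlapping groups.

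The accessory subunits of complex I held both a very open site and the site with the smallest p. Ndufa5, an accessory subunit near the ubiquinone site, had the complex I peak of highest CPM, its promoter (340.9 CPM per kb), with 170 ± 3.99 CPM in WT and 160 ± 21.7 CPM in KO (SD, n = 3) and a log2 fold change of -0.10. The smallest p of any member came from a low peak inside Ndufa10 (chr1:92468836-92469242), a gene for an accessory subunit of the proton-pumping arm. Its level was 6.30, 1.35, 1.20 and 5.80 CPM in WT1 to WT4 and 8.63, 10.1 and 12.9 CPM in KO1 to KO3. All KO libraries were above all WT libraries, and WT2 and WT3 were far below WT1 and WT4. The log2 fold change was 1.43 (SE 0.46, edgeR adjusted p = 0.268). A second tested peak of Ndufa10 had a log2 fold change of -0.18. Ndufc2, a small subunit of the membrane arm, had 21.3, 6.77, 9.63 and 11.6 CPM in WT and 6.78, 12.6 and 4.31 CPM in KO at its promoter, an overlap with WT1 standing high (log2 fold change -0.71, SE 0.38, edgeR adjusted p = 0.567). Of the accessory subunits named for their role, Ndufa9 had its highest peak 9929 bp from the gene, with a log2 fold change of 0.41 (edgeR adjusted p = 0.715). The Ndufa9 promoter gave 0.21. The highest peak of Ndufb8, at its promoter, gave 0.18 (edgeR adjusted p = 0.945). Ndufb6 had 4 tested peaks, each with an estimate under 0 (-0.68 to -0.17, smallest edgeR adjusted p 0.572). This gene was singled out after its values were seen.

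Complex II, succinate dehydrogenase, is also an enzyme of the citrate cycle. All 4 of its genes had a peak, and of 7 tested peaks 0 were called, 4 had an estimate above 0 and the median was 0.08 on the log2 scale. Sdha, the flavoprotein that oxidises succinate, had a site inside the gene (chr13:74341058-74341461) with 31.0, 33.8, 30.1 and 31.6 CPM in WT and 19.1, 32.9 and 17.8 CPM in KO. KO1 and KO3 were below every WT library while KO2 was among them (log2 fold change -0.48, SE 0.22, edgeR adjusted p = 0.490). The Sdha promoter, shared with Ccdc127, had a log2 fold change of 0.08 with overlapping groups. Sdhb, the iron-sulphur subunit, had the highest complex II peak, with 59.8 ± 8.11 CPM in WT and 61.8 ± 1.94 CPM in KO (SD, n = 3) and a log2 fold change of 0.09. The membrane anchors that bind ubiquinone gave 0.12 for Sdhc and -0.27 for Sdhd, the latter at the promoter with NRF1 and ETS letters printed above.

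Complex III passes electrons from ubiquinol to cytochrome c. Among its 10 tested peaks 0 were called, 6 had an estimate above 0 and the median log2 fold change was 0.09. All 5 of its promoter peaks had an estimate above 0 (median 0.18), and 1 of the other 5 peaks did. The other peaks include those at an end of Uqcrb, Uqcrc2 and Uqcrq, genes without a RefSeq window. This split therefore does not set promoters apart from other sites. Uqcrfs1, the Rieske iron-sulphur protein, showed both directions within one locus. Its promoter (chr13:30545204-30545560) had 34.9, 52.8, 47.0 and 27.4 CPM in WT and 42.5, 49.3 and 58.2 CPM in KO, overlapping groups with a log2 fold change of 0.31 (SE 0.18, edgeR adjusted p = 0.616). A smaller peak 3612 bp from the gene (chr13:30548928-30549214) had 23.3, 10.8, 12.0 and 12.6 CPM in WT and 9.24, 6.32 and 9.71 CPM in KO. Here every KO library was below every WT library and WT1 stood apart from the other WT libraries (log2 fold change -0.80, SE 0.34, edgeR adjusted p = 0.438). Uqcrc2, a core protein of the matrix side, had the highest complex III peak, at one end of the gene (chr7:120635003-120635360), with 82.4, 73.1, 73.5 and 82.2 CPM in WT and 63.5, 70.1 and 71.2 CPM in KO. The groups did not overlap, yet the distance between KO3 and WT2 was small, and the log2 fold change was -0.20 (SE 0.13, edgeR adjusted p = 0.666). Its partner Uqcrc1 had 0.24 at the promoter. Uqcrb, a small subunit at the ubiquinone site, lies with Gm10767 under 1 peak that had 71.7, 62.3, 36.1 and 46.9 CPM in WT and 37.6, 46.8 and 47.5 CPM in KO, a WT spread wider than the difference between the groups (log2 fold change -0.33, SE 0.18, edgeR adjusted p = 0.561).

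Complex IV, cytochrome c oxidase, hands the electrons to oxygen. Of its 20 tested peaks 0 were called, 8 were above 0, the median log2 fold change was -0.04, and the groups overlapped at all 20. The promoter peaks gave 4 of 11 above 0. Cox7c, a small structural subunit, had the highest CPM of all member peaks, also per length (chr13:86046634-86047045, 516.1 CPM per kb), with 218.0, 222.0, 215.6 and 207.6 CPM in WT and 183.6, 224.4 and 213.6 CPM in KO. KO1 was lowest and KO2 highest of the 7 libraries, and the log2 fold change was -0.07 with a 95% interval of -0.24 to 0.11. Cox4i1, the widely expressed form of a regulatory subunit, had its smallest p at a peak shared with Emc8, with 32.9, 24.4, 23.5 and 32.7 CPM in WT and 32.4, 51.8 and 34.5 CPM in KO. KO2 alone was far above the rest (log2 fold change 0.44, SE 0.20, edgeR adjusted p = 0.488), and a wider peak 27562 bp from Cox4i1 had an estimate of -0.29. The other subunits named for their role gave -0.28 for Cox5a, 0.12 for Cox5b, -0.14 for Cox6a1 and -0.05 for Cox7a2, each with overlapping groups.

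Several complex IV subunits exist as a widely expressed and a tissue-restricted form. No peak belonged to Cox4i2, Cox6a2, Cox7b2 or Cox8c, the restricted forms known from lung, heart and muscle, or testis, whereas their widely expressed partners Cox4i1, Cox6a1, Cox7b and Cox8a each had a peak at a gene end. The other restricted forms each had a peak. Per kb of peak, the promoter of Cox6b2, known from testis, had 37.1 CPM against 62.6 CPM for Cox6b1. The highest peak of Cox7a1, the heart and muscle form, had 34.1 CPM per kb against 160.6 CPM per kb for Cox7a2. Cox8b had no peak over its promoter. Its highest peak, 8185 bp from the gene, had 18.5 CPM per kb against 98.4 CPM per kb for Cox8a. Ndufa4 is counted with complex I here by its prefix, but its protein is known as a subunit of complex IV. Its paralogue Ndufa4l2, a form induced by low oxygen, reached 55.4 CPM per kb at its highest peak and Ndufa4 114.5 CPM per kb. In each of these pairs the widely expressed form had the higher value.

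Complex V makes ATP in a catalytic head that is held by a peripheral stalk. Of its 23 tested peaks 0 were called, 12 were above 0 and the median log2 fold change was 0.02. The stalk gene Atp5h, for subunit d, had the smallest p of any member promoter (chr11:115419833-115420244, shared with the potassium channel domain gene Kctd2), with 26.6, 28.4, 31.3 and 26.3 CPM in WT1 to WT4 and 41.0, 41.7 and 38.8 CPM in KO1 to KO3. The KO libraries were all above the WT libraries, and neither group varied by more than a few CPM. The log2 fold change was 0.53 (SE 0.19, 95% interval 0.14 to 0.91), and the adjusted p was 0.343 in edgeR, so the peak was not called. The catalytic subunits gave estimates on both sides of 0. Atp5a1, the alpha subunit, shares its peak with Haus1 and had 39.7, 29.8, 37.3 and 47.9 CPM in WT and 29.6, 30.3 and 28.0 CPM in KO, with WT2 inside the KO range (log2 fold change -0.41, SE 0.20, edgeR adjusted p = 0.501). Atp5b, the beta subunit with the catalytic sites, had a log2 fold change of -0.02 and Atp5c1, the central shaft, 0.07, both at promoters with overlapping groups.

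Ndufb4, Atp5j and Atp5o lie on chromosome 16, which also carries Opa1 and holds 13 of the 33 called peaks of all chromosomes, each beyond 40 Mb. They had 8 tested peaks there, of which 0 were called, 0 reached an unadjusted p under 0.05 and 5 were above 0. Over all 1583 tested peaks of chromosome 16, 13 were called, 178 (11.2%) had an unadjusted p under 0.05 and 858 (54.2%) were above 0. The KO and WT libraries did not overlap at 2 of the 8, against 174 (11.0%) of the 1583. Ndufb4 lies before 40 Mb, outside the stretch that holds the called peaks. At Atp5j, a stalk subunit, the wide peak that also covers the start of Gabpa had 203.9, 211.2, 216.2 and 191.8 CPM in WT and 195.3, 234.5 and 222.7 CPM in KO (199.8 CPM per kb), with a log2 fold change of 0.07 and overlapping groups. Ndufb4, a subunit of the membrane arm, had 63.5, 58.2, 68.6 and 55.9 CPM in WT and 70.6, 69.5 and 74.4 CPM in KO at its promoter. Every KO library was above every WT library by a narrow margin (log2 fold change 0.22, SE 0.14, edgeR adjusted p = 0.656), and a second Ndufb4 peak 30380 bp away gave -0.66 with overlap. Atp5o, which joins the stalk to the head, had 5 tested peaks with log2 fold changes of -0.35 to 0.70. The highest of these came from a site 30874 bp from the gene (chr16:91962504-91962807), with 6.78, 5.42, 7.23 and 9.48 CPM in WT and 12.3, 11.4 and 11.9 CPM in KO. The groups did not overlap (SE 0.37, edgeR adjusted p = 0.547), while 2 neighbouring sites within a few kb, 31632 and 32925 bp from Atp5o, gave 0.26 and -0.05. The Atp5o promoter gave 0.26 with overlap.

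**Figure D3:**
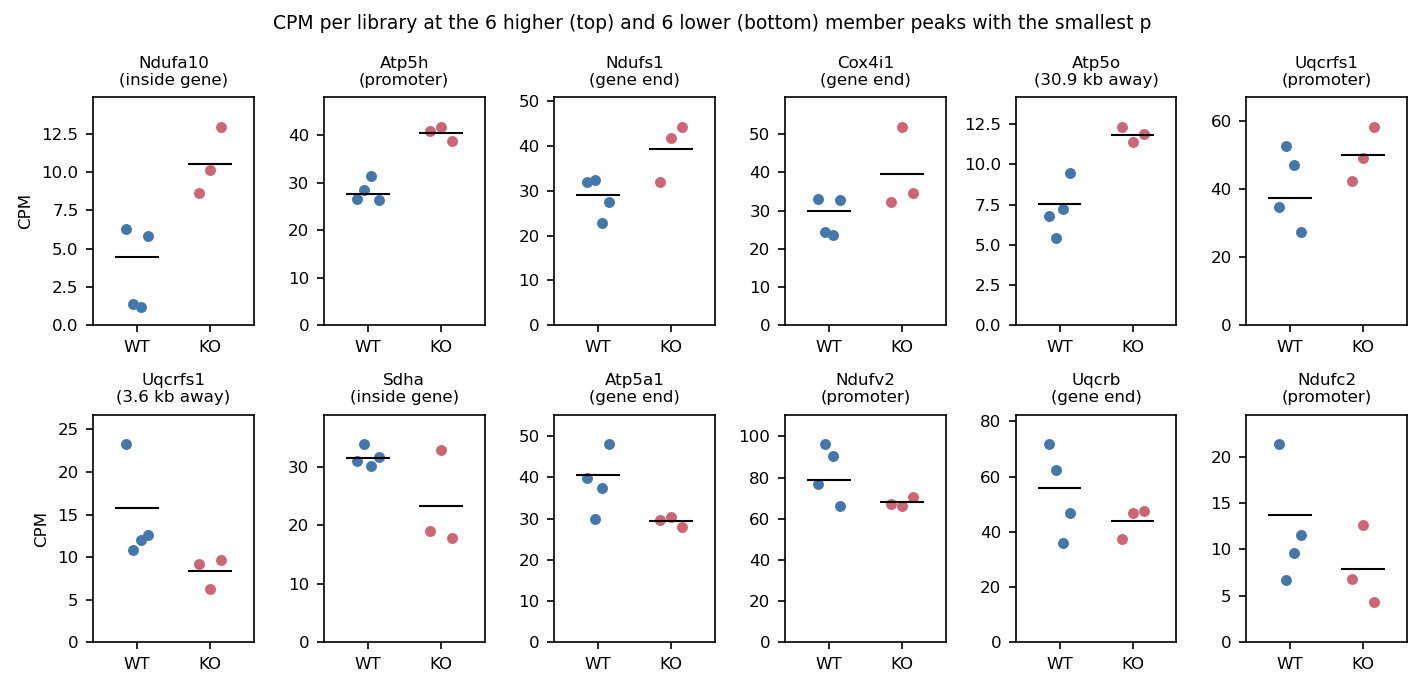
CPM in each library, WT in blue and Opa1 KO in red, at the 6 member peaks with the smallest p and a higher level in KO (top) and the 6 with a lower level (bottom), each axis starting at 0; lines are group means with WT2 and WT3 averaged to 1 sample. The groups do not overlap at Ndufa10, Atp5h and the distant peaks of Atp5o and Uqcrfs1, and overlap at the other 8 peaks.

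Accessibility was also added over all peaks of each complex. All 150 member peaks summed to 4303, 4399, 4342 and 4306 CPM in WT1 to WT4 and 4307, 4406 and 4289 CPM in KO1 to KO3, so the groups overlapped and the means were 0.173% apart. The sums also overlapped for complexes I, II, III and IV and the assembly factors, with KO means between 3.99% below (-3.99%, complex III) and 1.93% above (complex I) the WT means. The complex V sums did not overlap, at 829 to 849 CPM in WT and 855 to 867 CPM in KO, a KO mean 2.71% above that of WT. Without the Atp5h peak the complex V sums were 802 to 820 CPM in WT and 814 to 828 CPM in KO and overlapped. Without the chromosome 16 peaks they overlapped too, and the KO mean was on the other side of the WT mean (-0.264%). The promoter peaks of complex V had a KO mean 6.02% above that of WT and its other peaks one below it (-10.8%), with overlapping groups in both. Among the other peaks are those at an end of Atp5a1 and Atp5mpl, genes without a RefSeq window. Complex II summed to 196 CPM in WT3 and 242 to 247 CPM in the other WT libraries.

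**Figure D4:**
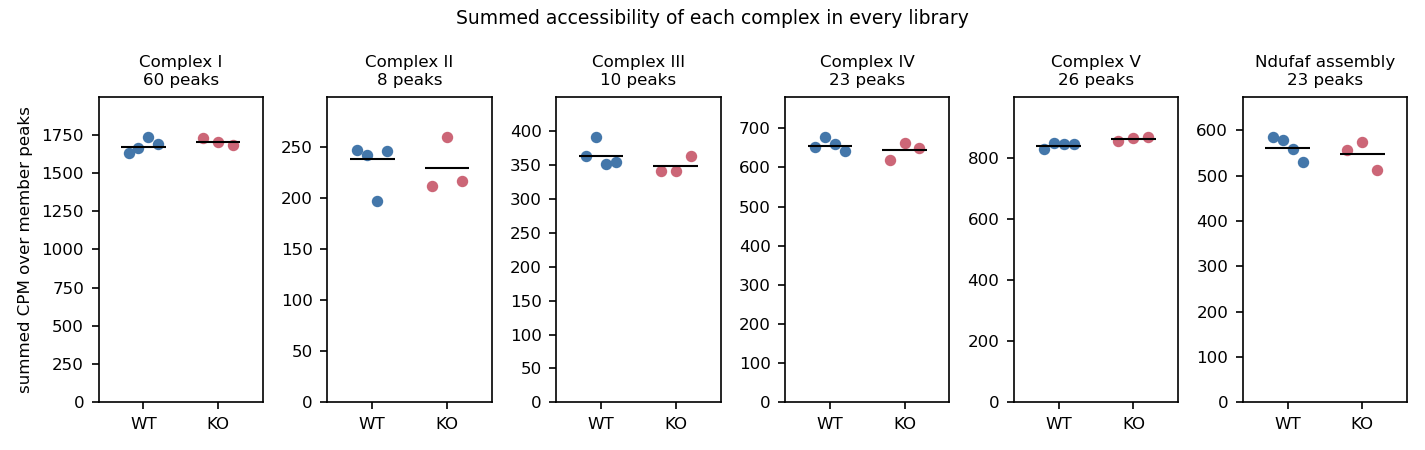
Summed CPM over all peaks of each complex in every library, WT in blue and Opa1 KO in red, with each axis starting at 0 and lines for the group means (WT2 and WT3 averaged). The sums of the 2 groups overlap in every panel except complex V, where WT spans 829 to 849 CPM and KO 855 to 867 CPM.

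Counts were also summed per gene over the peaks within 1 kb of either end of the gene, and all 10395 genes with such counts were tested together. Such a sum also takes in peaks that were assigned to a neighbouring gene. At Ndufa11 the 1 assigned peak is a small part of the sum. Over all genes tested, 18 (0.173%) were called and 885 (8.51%) had an unadjusted p under 0.05. Of the 82 member genes tested 0 were called, 7 (8.54%) had an unadjusted p under 0.05 and 43 had an estimate above 0 (median log2 fold change 0.01). Atp5h had the smallest p of these genes, with a log2 fold change of 0.49 (edgeR adjusted p = 0.451). For 21 subunits named by role, the peak of highest CPM of each gave 13 estimates above 0. They ran from -0.41 (Atp5a1) to 0.43 (Ndufs1), with a median of 0.09. Estimates above 0 made up 49.8% of all tested peaks and 58.6% of all tested promoter peaks. KO and WT libraries were fully separated at 1 of the 21 peaks, that of Uqcrc2, and at 9.36% of all tested peaks. For Ndufa9 and Cox4i1 the peak of highest CPM lay outside the gene, 9929 and 27562 bp away. Their peaks at a gene end gave 0.21 and 0.44.

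The Ndufaf assembly factors, which build complex I without being part of it, had 18 tested peaks, of which 0 were called, 7 had an estimate above 0 and the median was -0.04 on the log2 scale. Ndufaf6 had 9 peaks, the most of any member, and its 7 tested peaks gave -0.57 to 0.20. In a wider list of 50 assembly factors, of which 49 were matched and which includes these 8, 94 peaks were tested, 0 were called and 50 were above 0 (median 0.04). Those with the smallest p were a site 60164 bp from Lrpprc, a gene for a mitochondrial mRNA-binding protein, at -1.11 (edgeR adjusted p = 0.256), and a site 43737 bp from Cox10, for a haem synthesis enzyme of complex IV, at 1.13 (edgeR adjusted p = 0.277). A second site near Lrpprc gave 0.36. Among 37 tested peaks of 14 regulators and mitochondrial DNA maintenance genes (of 16 listed) 0 were called and 21 were above 0. The promoter of Tfam, which packages and transcribes mitochondrial DNA, had 48.9, 69.0, 69.2 and 64.3 CPM in WT and 77.3, 73.3 and 77.7 CPM in KO, with every KO library above WT (log2 fold change 0.29, SE 0.14, edgeR adjusted p = 0.506). Among 34 tested peaks of 14 citrate cycle genes 0 were called and 19 were above 0, with the smallest p at a site touching Dlst, a subunit of the oxoglutarate dehydrogenase complex (log2 fold change 1.01, edgeR adjusted p = 0.256). Among 24 tested peaks of 10 electron carrier and coupling genes (of 11 listed) 0 were called and 11 were above 0. Over these lists 5.41% to 8.82% of tested peaks had an unadjusted p under 0.05, each below the 9.47% of all tested peaks.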

How the data were processed

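ATAC-seq libraries of sorted spleen Treg cells, 4 WT and 3 Opa1 KO, were analysed from 1 table. The authors deposited raw, whole-number counts, 1 column per library and 1 row per peak. Per the submitters' processing notes, the build was mm10 and the tools were bedtools 2.25.0, BWA 0.7.16, MACS2 2.1.1, Picard 2.9.4, SAMtools 1.9 and Trimmomatic 0.36. Settings, peak merging and any transposase shift of reads are not given in the sources used for this text, and peak starts are printed as deposited, without stating whether they count from 0 or 1. Between 78.0% and 86.3% of counts per library were even, which counting both mates of a pair would give, so counts overstate fragments. Amplified reads without identifiers do not count molecules.

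Peaks were assigned to protein-coding genes of the RefSeq table of GRCm38.p6, which holds no exons or strand, so peaks were not placed in exons or introns. Counts as deposited were tested in edgeR 4.0.16 (R 4.3.3; filterByExpr with a minimum count of 10 and a total of 15, TMM, robust glmQLFit, glmQLFTest, Benjamini-Hochberg adjustment over all tested features), checked on simulated counts. DESeq2 1.42.0 and limma 3.58.1 were alternatives. The 95% intervals use the fit's standard error and total degrees of freedom. Counts of library pairs, halved, were compared by chi-square: WT2 and WT3 gave p = 0.0843 at a mean count of 10 or more (36418 peaks) and p = 0.0346 at 50 or more (11332 peaks), less than any other pair of 1 genotype differed.

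The members and lists were chosen with earlier results of these data known. Peaks were named by rule: any called, the 6 with the smallest p in each direction, the highest of each complex, the highest of each of 21 subunits named by role, and all tested on chromosome 16. The values of some genes are not reported here. Promoter peaks and shared promoters were defined after the promoter table had been seen.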

Additional observations from a re-analysis of the deposited data

Results flagged for a closer look

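In 2 of 45 values with 4 WT libraries, 1 library lay farther from the rest than Dixon's 95% critical value allows, and chance gives about 1 in 20. At the peak 3612 bp from Uqcrfs1, the Rieske protein gene of complex III, WT1 had 23.3 CPM and the other WT libraries 10.8 to 12.6 CPM. The peaks of complex II summed to 196 CPM in WT3 and to 242 to 247 CPM in the other WT libraries.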

How the results depend on the processing

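The count of called member peaks was 0 in the main analysis and in all 22 alternatives run (other scalings, filters, tools, peak assignments, and each library left out), with smallest adjusted p of 0.239 to 0.557 and 2 to 10 member peaks at an unadjusted p under 0.05, while calls over all peaks ranged from 13 to 82. The count of called member genes was 0 in all 16 alternatives, with smallest adjusted p of 0.253 to 0.859, and calls over all genes ranged from 0 to 46, with 0 in DESeq2, without WT1 and without KO3. The median log2 fold change of member peaks ran from -0.03 to 0.05 over 20 alternatives and from -0.02 to 0.03 when each library was left out in turn. It was 0.0503 over promoter peaks only, an alternative chosen after seeing the data, beyond the spread of 0.04 between libraries. The median over all 7683 tested promoter peaks was 0.043, so this offset was not particular to the member promoters. Among the 38 named peaks, 630 values under alternatives gave 0 calls and 16 changes of sign, at 10 peaks with a main log2 fold change of at most 0.18 in size. With replicate number as a block, 0 member peaks and 0 member genes were called, the median was 0.01 and calls over all peaks were 13. Deviations of same-numbered WT and KO libraries correlated at 0.01, -0.01 and 0.0037, so the numbers were not taken as pairs. Depth limits the low peaks: 97 of 130 intervals lay within 2-fold, and 67 of the 71 at promoter peaks.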
